A study of Homo sapiens with 6 samples.

Results

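The miR-99b/let-7e/miR-125a cluster was examined across 6 small RNA libraries. It consists of 3 neighboring hairpins, MIR99B, MIRLET7E and MIR125A, and both arms of each hairpin were followed, giving 6 of the 2588 mature miRNAs counted. The members were picked by name, selected on the results of these same libraries, in which hsa-let-7e-5p passed the study's change criteria in each line under 5 ng/mL TGF-β1. The levels and ratios below are therefore a description.

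The study asked how TGF-β1, a cytokine used to model pulmonary fibrosis, alters miRNAs in respiratory epithelial cells. A549 cells, from a human lung adenocarcinoma, and BEAS-2B cells, an immortalized bronchial epithelial line of human origin, were both labeled wild type and grown in RPMI1640 medium. In each line, 1 culture was left untreated as the control, 1 received 1 ng/mL TGF-β1 and 1 received 5 ng/mL TGF-β1, all for 48 h; these are called the low and the high dose from here on. Each of these 6 groups had 1 library, so no value has a replicate error and no test was made. The 95% intervals cover counting error only, and a difference beyond them is a difference between libraries.

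A mature miRNA is cut from an arm of a hairpin and loaded into Argonaute, and its seed, the bases near its 5′ end, pairs with target mRNAs and represses them. The cluster joins a let-7 family member, a family that holds back RAS and HMGA2 and keeps cells differentiated, with a miR-125 member, a relative of the worm timing gene lin-4, and a miR-99/100 member, a family known to target MTOR. Related clusters with the same arrangement lie on other chromosomes, so each 5p arm shares its seed with paralogs made elsewhere.

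The mature sequences of the members are shown because the seed decides which other miRNAs they can be grouped with. They are given 5′ to 3′ as in RefSeq for GRCh38.p14, where all 6 names matched, with the seed (bases 2 to 8) in capitals.
hsa-miR-99b-5p: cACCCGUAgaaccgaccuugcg
hsa-miR-99b-3p: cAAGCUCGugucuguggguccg
hsa-let-7e-5p: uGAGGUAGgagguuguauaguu
hsa-let-7e-3p: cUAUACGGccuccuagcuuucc
hsa-miR-125a-5p: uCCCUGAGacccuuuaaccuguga
hsa-miR-125a-3p: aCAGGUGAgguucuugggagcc

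The 6 members carried 6 different seeds. Among the RefSeq miRNAs, the seed of let-7e-5p occurred in 11 names, that of miR-99b-5p in 3, that of miR-125a-5p in 3, and that of miR-99b-3p in 2. The seeds of let-7e-3p and miR-125a-3p occurred in no other name. The closest paralogs of the 5p arms, shown for comparison with the same capitals, were as follows.
hsa-miR-99a-5p: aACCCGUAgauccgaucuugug
hsa-miR-100-5p: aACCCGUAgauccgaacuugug
hsa-let-7a-5p: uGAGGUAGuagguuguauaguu
hsa-let-7c-5p: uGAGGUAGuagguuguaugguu
hsa-miR-125b-5p: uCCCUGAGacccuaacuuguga

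With positions counted from 1 at the 5′ end and the member's base first, let-7e-5p differed from let-7a-5p by G9U alone and from let-7c-5p by G9U and A19G. The miR-99b-5p sequence differed from miR-99a-5p by C1A, A11U, C16U and C21U, and from miR-100-5p by C1A, A11U, C16A and C21U. The miR-125a-5p sequence was 24 nt long against 22 nt for miR-125b-5p, and both shared their first 13 and last 5 bases. The number of mismatches allowed in read assignment is not given in the sources used here, so the split of reads between let-7e-5p and let-7a-5p is uncertain, and its part in the values below was not tested.

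The 3 hairpins lie on the plus strand of chromosome 19 within 728 bp (GRCh38), and they are shown with their mature arms in capitals because arm counts are compared below. MIR99B spans chr19:51692612-51692681, MIRLET7E chr19:51692786-51692864 and MIR125A chr19:51693254-51693339, with 104 bp between the first pair and 389 bp between the second.
MIR99B: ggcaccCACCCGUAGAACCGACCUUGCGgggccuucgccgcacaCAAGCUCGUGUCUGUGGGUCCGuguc
MIRLET7E: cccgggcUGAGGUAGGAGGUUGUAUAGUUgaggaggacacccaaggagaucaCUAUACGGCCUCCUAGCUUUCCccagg
MIR125A: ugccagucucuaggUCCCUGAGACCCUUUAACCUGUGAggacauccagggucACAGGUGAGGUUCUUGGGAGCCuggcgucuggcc

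In the GENCODE 29 annotation, all 3 hairpins are intronic in the protein-coding gene SPACA6, which runs on the same strand, and a SPACA6 exon begins directly after the last base of MIR125A. The antisense lincRNA SPACA6P-AS covers 48 of 70 bp of MIR99B and the whole of the other two hairpins with its exons. The strand setting of the counting is not given in the sources used here, so reads from either strand cannot be told apart.

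Total counts ranged from 633318 to 900424 per library, and a count of 0 would allow 3.33 to 4.74 CPM (reads scaled to the same total in each library). The BEAS-2B control stood apart: its TMM scaling factor was 1.32 against 0.829 to 1.02 in the other 5 libraries, and hsa-miR-21-5p took 35.4% of its counts against 47.6% to 57.2% elsewhere. It was the only BEAS-2B control, so no BEAS-2B comparison with control could be made without it. As a check of the epithelial label, hsa-miR-200b-3p had 139 to 356 counts in every library, hsa-miR-200a-3p 33 to 73, hsa-miR-200c-3p 6 to 38 and hsa-miR-429 8 to 30. The epithelial miRNAs hsa-miR-141-3p and hsa-miR-205-5p were near 0, with 1 to 8 and 0 to 2 counts.

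The cluster took 1.87% of the counts in the A549 control, 2.44% at the low dose and 3.89% at the high dose. The BEAS-2B shares were 2.28%, 2.76% and 2.06%. Thus the share was highest at the upper dose in A549 cells and at the lower dose in BEAS-2B cells. Levels are given from here on as normalized counts, which are counts over the TMM effective library size, brought back to a common size.

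The most abundant member in every library was miR-125a-5p, followed by miR-99b-5p and let-7e-5p. By level within a library, miR-125a-5p ranked between 6th and 14th of all miRNAs, miR-99b-5p between 14th and 24th, and let-7e-5p between 26th and 35th. Each 3p arm was the minor arm of its hairpin. The study's level criterion, a normalized data (ND) value, log2(normalized count + 1), that reaches 8, was met in all 6 libraries by miR-99b-5p, miR-99b-3p, let-7e-5p and miR-125a-5p. It was met in none by let-7e-3p and miR-125a-3p, whose raw counts lay between 43 and 80 and between 82 and 147.

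**Figure D1:**
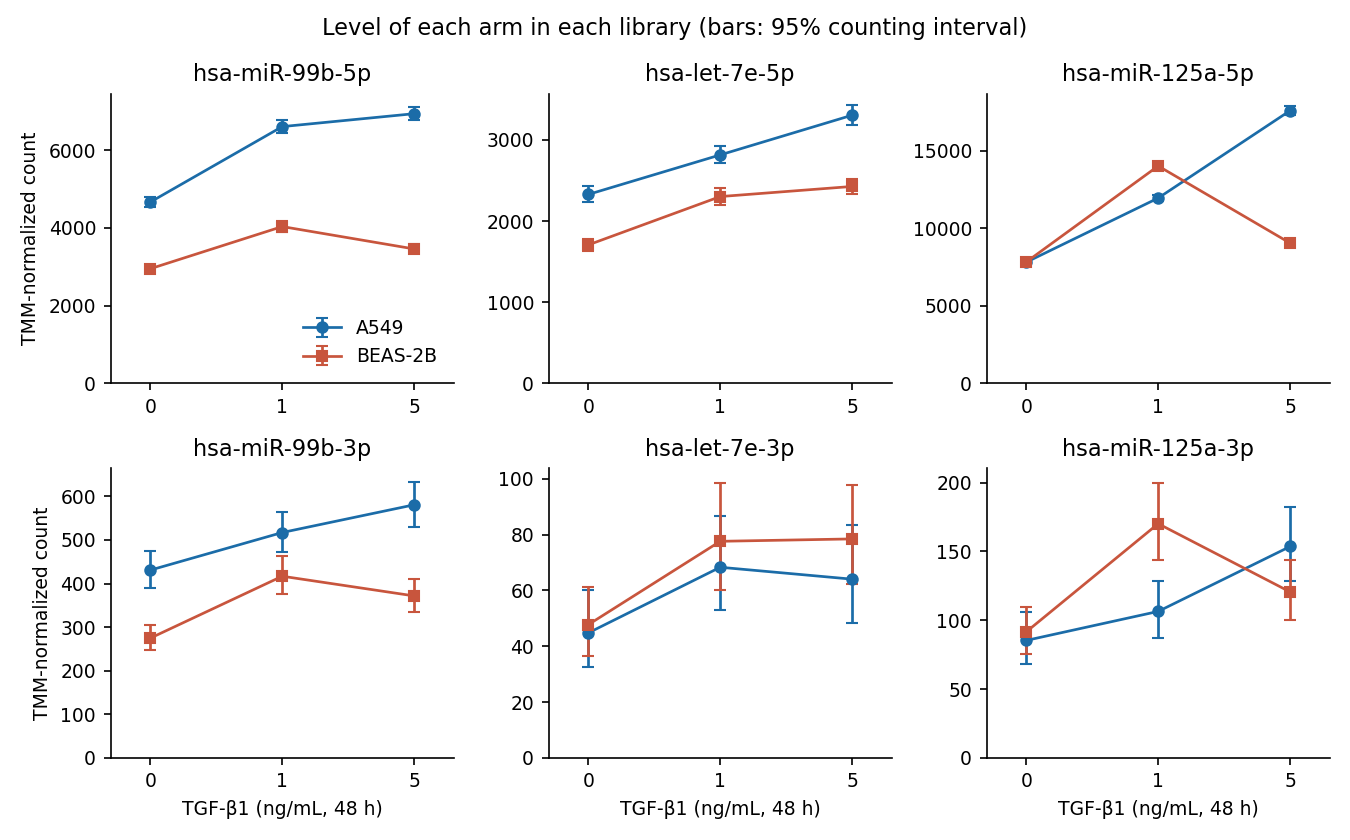
Normalized count (y axis, linear from 0) of each arm against TGF-β1 concentration (x axis, ng/mL), with 1 point per library, circles for A549, squares for BEAS-2B and bars for the exact 95% Poisson counting interval. Both miR-125a arms are highest at the high dose in A549 cells and at the low dose in BEAS-2B cells. The let-7e-5p point is highest at the high dose in both lines, but in BEAS-2B cells its bars at the low and high dose overlap. The let-7e-3p bars overlap in A549 cells. In BEAS-2B cells, the control bar of let-7e-3p (36.6 to 61.1) lies below its bar at the high dose (62.2 to 97.6).

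The miR-125a hairpin gave the highest ratio to control among the members, in A549 cells at the high dose. In A549 cells, the miR-125a-5p level was 7809 in the control, 11949 at the low dose and 17594 at the high dose. The BEAS-2B levels were 7822, 14020 and 9041. Under TMM the A549 and BEAS-2B controls were alike, with a log2 difference of 0.00 (-0.05 to 0.04), whereas 5 other scalings put the A549 control lower, at -0.54 to -0.05. Relative to control, the log2 ratio in A549 cells was 0.61 (0.57 to 0.66) at the low dose and 1.17 (1.13 to 1.21) at the high dose, a fold of 2.25. In BEAS-2B cells it was 0.84 (0.80 to 0.88) at the low dose, a fold of 1.79, and 0.21 (0.17 to 0.25) at the high dose, where the sign depended on the scaling and became -0.20 under total-count scaling.

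The opposite arm, miR-125a-3p, followed the same course at a far lower level. Its normalized counts were 85.3, 106 and 154 in A549 cells and 91.5, 170 and 121 in BEAS-2B cells, in order of dose. The log2 ratio at the high dose was 0.84 (0.44 to 1.26) in A549 cells and 0.39 (0.02 to 0.77) in BEAS-2B cells, and at the low dose it was 0.32 (-0.11 to 0.75) and 0.89 (0.54 to 1.26). The order of its levels over the 6 libraries was uncertain, since the interval of every one of the 5 neighboring pairs included 0. Under total-count scaling, the BEAS-2B ratio at the high dose was -0.01.

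The miR-99b hairpin stood higher in A549 than in BEAS-2B cells throughout. The level of miR-99b-5p was 4664, 6607 and 6939 in A549 cells and 2948, 4034 and 3457 in BEAS-2B cells in order of dose. The lowest A549 library lay above the highest BEAS-2B library, and none of the 5 neighboring pairs in the order had an interval that included 0. The log2 ratio to control in A549 cells was 0.50 (0.45 to 0.56) at the low dose and 0.57 (0.52 to 0.63) at the high dose. In BEAS-2B cells it was 0.45 (0.39 to 0.52) and 0.23 (0.16 to 0.30), and the value at the high dose became -0.18 under total-count scaling.

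The miR-99b-3p level had the same order of libraries, although 3 of its 5 neighboring pairs had intervals that included 0, with 431, 517 and 581 in A549 cells and 275, 417 and 372 in BEAS-2B cells. Its log2 ratio at the low dose was 0.26 (0.07 to 0.45) in A549 cells and 0.60 (0.39 to 0.82) in BEAS-2B cells. At the high dose both lines gave 0.43, with intervals of 0.24 to 0.62 and 0.22 to 0.65.

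The let-7e-5p level was higher than control in both lines at the high dose, by the same ratio under TMM. It was 2328, 2815 and 3305 in A549 cells and 1705, 2302 and 2426 in BEAS-2B cells, in order of dose. The BEAS-2B library at the low dose, the A549 control and the BEAS-2B library at the high dose could not be ordered, because the intervals between neighbors included 0. The log2 ratio at the high dose was 0.51 (0.43 to 0.59) in each line, a fold of 1.42, just past the 1.4-fold criterion. At the low dose it was 0.27 (0.19 to 0.36) in A549 cells and 0.43 (0.34 to 0.52) in BEAS-2B cells. The size depended on the scaling, with 0.66 in A549 and 0.10 in BEAS-2B cells at the high dose under total-count scaling.

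The let-7e-3p level was 44.7, 68.3 and 64.0 in A549 cells and 47.7, 77.6 and 78.4 in BEAS-2B cells. All 5 neighboring pairs in its order had intervals that included 0. In A549 cells, its log2 ratio at the high dose of 0.51 had an interval from -0.09 to 1.13, so a difference was not detectable there at this depth. At the low dose the A549 ratio was 0.60 (0.04 to 1.20). In BEAS-2B cells the ratio was 0.69 (0.18 to 1.22) at the low dose and 0.71 (0.22 to 1.22) at the high dose. Under total-count scaling these BEAS-2B ratios were 0.27 and 0.30.

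At the high dose in A549 cells, 3 of the 4 members reaching ND 8 passed the 1.4-fold criterion and were higher than control, namely miR-99b-5p, let-7e-5p and miR-125a-5p. Among miRNAs reaching ND 8 there, 27% passed and were higher. In BEAS-2B cells, let-7e-5p passed, against 20% of such miRNAs. These contrasts were used to pick the cluster, so nothing is read from these counts. At the low dose, miR-99b-5p and miR-125a-5p passed in A549 cells, 2 of 4 against 27% of 137 miRNAs, and miR-99b-3p and miR-125a-5p passed in BEAS-2B cells, 2 of 4 against 15.8% of 120. With total-count scaling, 0 members passed at the low dose in either line or at the high dose in BEAS-2B cells, and with DESeq2 size factors 1 passed at the high dose in A549 cells. Both doses share the control library of their line, so the ratios at the low dose are not independent of those at the high dose.

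All 6 members had a log2 ratio above 0 in each comparison of a treated library with its control, including all 4 that met the ND criterion. In A549 cells, the intervals of let-7e-3p at the high dose (-0.09 to 1.13) and miR-125a-3p at the low dose (-0.11 to 0.75) included 0. The comparisons at the high dose were used to pick the cluster, arms share hairpins and doses share a control. The signs are therefore not separate agreements, and the values below are a description only. Among all miRNAs reaching ND 8, the share above 0 was 48.9% in A549 cells at the high dose, 46.4% in BEAS-2B cells at the high dose, 46% in A549 cells at the low dose and 47.5% in BEAS-2B cells at the low dose. The median log2 ratio of the 4 members that met the ND criterion was 0.54, 0.33, 0.39 and 0.53 in that order. For all miRNAs reaching ND 8 it was -0.03, -0.08, -0.11 and -0.04. Over all 6 members, with the 2 low-count arms that never reached ND 8, the median was 0.54, 0.41, 0.41 and 0.65. In BEAS-2B cells at the high dose, this direction did not hold under every scaling for miR-99b-5p, miR-125a-5p and miR-125a-3p, nor at the low dose for miR-99b-5p and let-7e-5p.

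**Figure D2:**
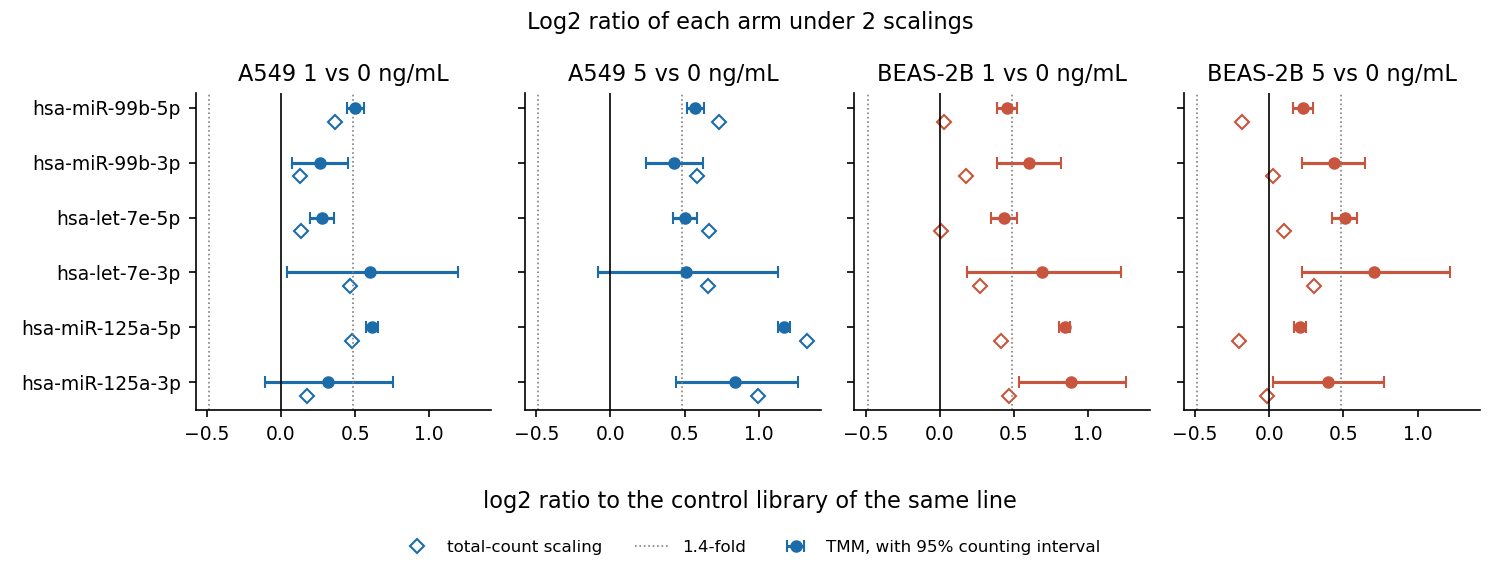
Log2 ratio of each arm (y axis) to the control library of its line (x axis) in 4 comparisons, with filled circles for TMM scaling, bars for the 95% counting interval, open diamonds for total-count scaling and dotted lines at 1.4-fold in each direction. Diamonds lie to the right of the circles in A549 cells at the high dose and to the left in the other 3 comparisons, crossing 0 in BEAS-2B cells at the high dose for miR-99b-5p (0.23 and -0.18), miR-125a-5p (0.21 and -0.20) and miR-125a-3p (0.39 and -0.01).

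The scaling moved all miRNAs of a library together. Total-count scaling moved the median log2 ratio of all miRNAs reaching ND 8 by 0.19 in A549 cells at the high dose, by -0.43 in BEAS-2B cells at the high dose and by -0.44 in BEAS-2B cells at the low dose. A scaling adds the same amount to every miRNA of a library, so a member's distance from that median hardly depends on it by construction, and the ranges given next over TMM and 6 other scalings are no sign of stability. In A549 cells at the high dose, miR-125a-5p lay 1.17 to 1.20 above the median, miR-99b-5p 0.57 to 0.61 and let-7e-5p 0.50 to 0.54. In BEAS-2B cells at the high dose, let-7e-5p lay 0.57 to 0.62 above it, miR-99b-5p 0.29 to 0.34 and miR-125a-5p 0.27 to 0.32. Each of the 6 members lay above the median in both lines at both doses.

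**Figure D3:**
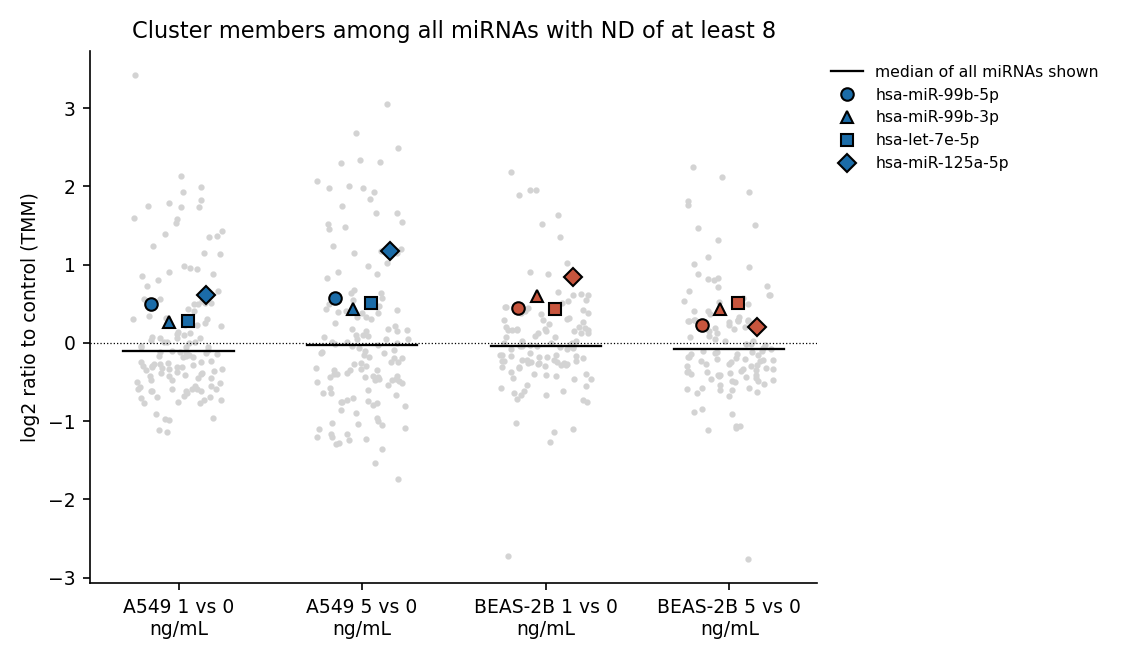
Log2 ratio to control under TMM (y axis) of every miRNA reaching ND 8 in each of 4 comparisons (x axis), with grey points for other miRNAs, a black line for the median of all, and large symbols for the 4 members that met the criterion, blue in A549 and red in BEAS-2B cells. The members lie above the median line in all 4 comparisons but inside the spread of the other miRNAs. Under total-count scaling, miR-99b-5p and miR-125a-5p are below 0 in BEAS-2B cells at the high dose.

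Both miR-125a arms had opposite signs in the libraries of the 2 lines when the doses were compared with each other. From the low to the high dose, the log2 ratio of miR-125a-5p was 0.56 (0.52 to 0.59) in A549 cells and -0.63 (-0.67 to -0.59) in BEAS-2B cells. It was the one member past both criteria in either line. In A549 cells, 8.46% of 130 miRNAs passed and were higher at the high dose. In BEAS-2B cells, 0.826% of 121 passed and were lower, which was miR-125a-5p alone under TMM. The miR-125a-3p arm took the same directions, with 0.53 (0.15 to 0.91) in A549 cells and -0.49 (-0.85 to -0.14) in BEAS-2B cells. Both arms kept these signs under all 6 other scalings, between 0.35 and 0.85 for miR-125a-5p in A549 cells and between -0.75 and -0.39 in BEAS-2B cells.

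The difference between the lines in the high-dose ratio, A549 minus BEAS-2B, was 0.96 (0.91 to 1.02) for miR-125a-5p and 0.34 (0.26 to 0.43) for miR-99b-5p on the log2 scale under TMM. For let-7e-5p it was 0.00 with an interval from -0.12 to 0.11, although under total-count scaling the 2 lines had the unequal ratios given above. At the low dose the same difference was -0.23 (-0.28 to -0.17) for miR-125a-5p and -0.16 (-0.28 to -0.04) for let-7e-5p under TMM. Both turned positive under total-count scaling, where the A549 and BEAS-2B log2 ratios to control were 0.48 and 0.41 for miR-125a-5p, 0.14 and 0.01 for let-7e-5p, and under unscaled counts.

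Between the lines at the same dose, miR-99b-5p was higher in A549 cells by a log2 ratio of 0.66 in the controls, 0.71 at the low dose and 1.01 at the high dose. Both miR-99b arms passed the criteria in the controls, where 40.7% of 135 miRNAs passed and were higher in A549 cells. Neither call held in the controls under total-count scaling, unscaled counts or TMM on the more abundant miRNAs, with log2 ratios for miR-99b-5p of 0.12, 0.23 and 0.34. At the low dose miR-99b-5p passed, against 38.5% of 143, and was at 0.46 under total-count scaling, short of the fold criterion. At the high dose both miR-99b arms and miR-125a-5p passed, 3 of 4 against 38.4% of 146. There, miR-99b-3p fell short of the fold criterion under total count without miR-21-5p (0.38) and unscaled counts (0.40). The let-7e-5p ratio between lines was 0.45, 0.29 and 0.45, and the value in the controls became -0.09 under total-count scaling.

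Ratios inside a library do not depend on how libraries are scaled to each other, so each 5p arm was set against its seed family. The let-7 family was taken as 9 miRNAs, the miR-99/100 family as 3 and the miR-125 family as 2. The other miRNAs with these seeds, hsa-miR-4458, hsa-miR-4500 and hsa-miR-4319, had at most 4 counts in any library and were left out.

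The share of let-7e-5p in the let-7 family was a small one, and it was higher at each dose in both lines. In A549 cells it was 2.54% (2.44 to 2.65) in the control, 2.96% (2.85 to 3.07) at the low dose and 3.29% (3.17 to 3.41) at the high dose. In BEAS-2B cells it was 2.19% (2.10 to 2.29), 2.88% and 3.62% (3.49 to 3.77), with no overlap of the intervals between doses in either line. Against let-7a-5p alone, its nearest sequence, the count ratio was 0.280, 0.350 and 0.294 in A549 cells and 0.105, 0.147 and 0.189 in BEAS-2B cells. From control to the high dose, that ratio changed by 0.85 (0.76 to 0.94) on the log2 scale in BEAS-2B cells but by 0.07 (-0.02 to 0.16) in A549 cells, where let-7a-5p itself was higher by 0.44.

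The share of miR-99b-5p in the miR-99/100 family was 18.0% (17.5 to 18.5), 17.9% (17.5 to 18.3) and 19.9% (19.5 to 20.4) in A549 cells. It was 5.56% (5.39 to 5.73), 7.99% (7.74 to 8.25) and 7.52% (7.29 to 7.77) in BEAS-2B cells. In A549 cells, the control and the library at the low dose could not be told apart, with a log2 change of -0.01 (-0.07 to 0.05) in the ratio of miR-99b-5p to the other family members. In BEAS-2B cells, where miR-99a-5p was lower by 0.88 at the high dose, the ratio of miR-99b-5p to miR-99a-5p went from 0.146 in the control to 0.329 at the low dose and 0.316 at the high dose.

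The miR-125 family consisted mostly of miR-125a-5p. Its share was 80.9% (80.1 to 81.7), 81.5% (80.9 to 82.2) and 85.7% (85.1 to 86.2) in A549 cells and 56.0% (55.3 to 56.8), 68.2% (67.5 to 68.9) and 63.3% (62.5 to 64.1) in BEAS-2B cells. Against miR-125b-5p, the log2 change at the high dose was 0.49 (0.40 to 0.59) in A549 and 0.44 (0.37 to 0.50) in BEAS-2B cells, beside TMM log2 ratios to control of miR-125b-5p itself of 0.68 and -0.23. Thus the share of each 5p arm in its family was higher at the high dose than in the control in both lines.

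**Figure D4:**
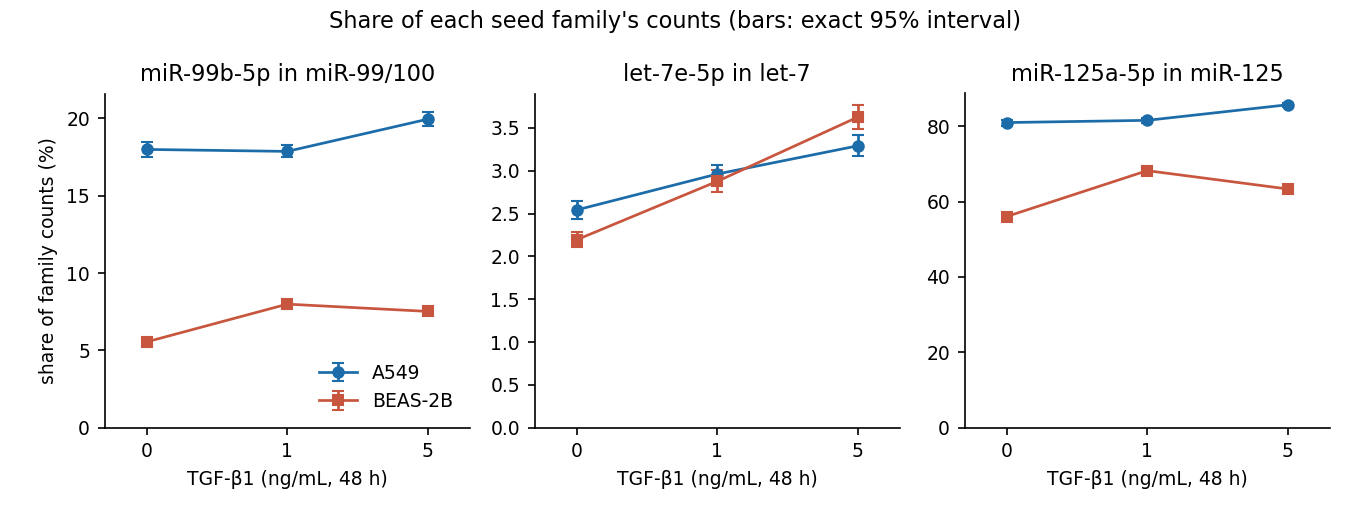
Share of the seed family's counts (y axis, percent, from 0) held by each 5p arm against TGF-β1 concentration (x axis, ng/mL), with circles for A549, squares for BEAS-2B and bars for the exact 95% binomial interval. The let-7e-5p share goes from 2.54% to 3.29% in A549 and from 2.19% to 3.62% in BEAS-2B cells, and miR-125a-5p holds more of its family in A549 cells at each dose.

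The members did not keep fixed proportions to each other. In A549 cells, the library at the high dose held 2.54 counts of miR-125a-5p for each count of miR-99b-5p, against 1.67 in the control and 1.81 at the low dose. In BEAS-2B cells this ratio was 2.65 in the control, 3.48 at the low dose and 2.62 at the high dose. The log2 change from control to the high dose was 0.60 (0.53 to 0.67) in A549 and -0.02 (-0.10 to 0.06) in BEAS-2B cells. The ratio of miR-125a-5p to let-7e-5p was 3.35, 4.24 and 5.32 in A549 cells and 4.59, 6.09 and 3.73 in BEAS-2B cells, so that the line with the lower ratio in the control had the higher one at the high dose. The ratio of let-7e-5p to miR-99b-5p was 0.499, 0.426 and 0.476 in A549 cells, and went from 0.579 in the control to 0.702 at the high dose in BEAS-2B cells. As a share of all cluster counts, miR-125a-5p made up 50.8%, 54.2% and 61.4% in A549 cells and 60.7%, 66.7% and 58.3% in BEAS-2B cells.

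**Figure D5:**
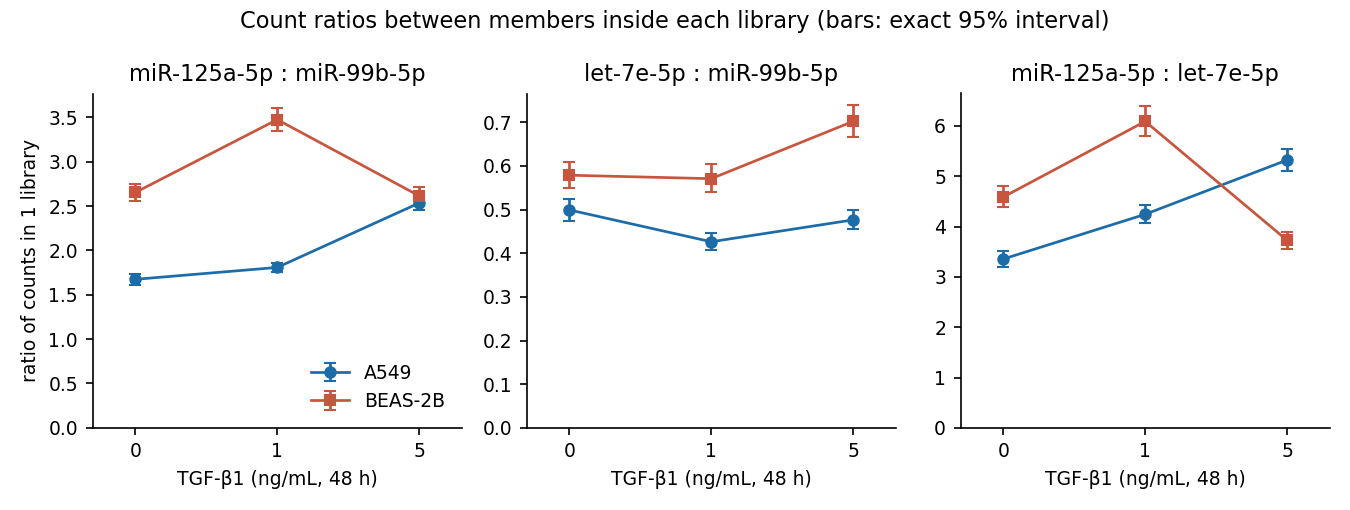
Count ratio between 2 members inside each library (y axis, from 0) against TGF-β1 concentration (x axis, ng/mL), with circles for A549, squares for BEAS-2B and bars for the exact 95% interval. The ratio of miR-125a-5p to miR-99b-5p reaches 2.54 at the high dose in A549 cells and peaks at 3.48 at the low dose in BEAS-2B cells.

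The 3p arm made up 7.26% to 9.71% of miR-99b counts, 1.89% to 3.26% of let-7e counts and 0.866% to 1.32% of miR-125a counts over the 6 libraries. Among the comparisons of a treated library with its control, the log2 change of the ratio of 3p to 5p counts had an interval that excluded 0 for miR-99b in A549 cells at the low dose alone, at -0.24 (-0.43 to -0.04). Between the lines, no interval of the 3p to 5p ratio excluded 0 in the controls. At the low dose the ratio was lower in A549 than in BEAS-2B cells for miR-99b, by a log2 difference of -0.40 (-0.60 to -0.20), and for miR-125a, at -0.45 (-0.81 to -0.08), while let-7e gave -0.47 (-0.97 to 0.02). At the high dose all 3 hairpins had a lower 3p share in A549 than in BEAS-2B cells, with log2 differences of the 3p to 5p ratio of -0.36 (-0.56 to -0.16) for miR-99b, -0.74 (-1.24 to -0.24) for let-7e and -0.61 (-0.97 to -0.25) for miR-125a.

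The likeness of profiles was measured as the root mean square difference between ND values over the 6 libraries, each profile centered on its own mean, among the 157 miRNAs that reached ND 8 in some library. The nearest profiles to miR-99b-5p were miR-31-5p at 0.142, miR-99b-3p at 0.159 and miR-320b at 0.204. The nearest to let-7e-5p were miR-92a-3p at 0.0799, miR-99b-3p at 0.102 and miR-320b at 0.175. The nearest to miR-125a-5p were miR-151a-3p at 0.173, miR-1290 at 0.264 and miR-320b at 0.267, and the median over all pairs of profiles was 0.853. Of the 156 other profiles, let-7e-5p was the 4th nearest to miR-99b-5p and miR-125a-5p the 19th, whereas the seed relatives miR-100-5p and miR-99a-5p were the 87th and 129th. From miR-125a-5p, let-7e-5p was the 4th and miR-99b-5p the 12th. The paralog arm miR-125b-1-3p was close behind as the 16th, and miR-125b-5p was the 94th. The points share 6 libraries and their scaling, so these ranks describe these libraries only.

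Arms of the paralogous clusters gave lower values than the members in several cases, but not in all. At the high dose, the paralog arm miR-125b-1-3p had a higher ratio to control than every member in both lines. In BEAS-2B cells at the high dose, the TMM log2 ratio to control was -0.88 for miR-99a-5p, -0.60 for let-7c-5p and -1.72 for miR-125b-2-3p (83 counts in the control and 19 at the high dose), all arms of the miR-99a/let-7c/miR-125b-2 cluster with no other locus. In A549 cells the same arms gave -0.07, 0.17 and -1.45, the last from 20 and 6 counts. For the miR-100/let-7a-2/miR-125b-1 cluster, miR-100-5p gave 0.07 in BEAS-2B and 0.55 in A549 cells, and miR-125b-1-3p gave 0.82 and 1.52. The let-7a-5p sequence comes from 3 loci and miR-125b-5p from 2, so their counts cannot be given to a cluster. Inside the libraries, the count ratio of let-7e-5p to let-7c-5p was 1.13, 2.04 and 2.45 in BEAS-2B cells and 3.62, 4.79 and 4.56 in A549 cells, and that of miR-99b-5p to miR-99a-5p in A549 cells was 0.727, 1.16 and 1.13. Both ratios were higher in each treated library than in its control, with log2 changes at the high dose of 1.11 (0.98 to 1.25) and 0.33 (0.15 to 0.51) for let-7e-5p to let-7c-5p in BEAS-2B and A549 cells, and of 1.11 (1.04 to 1.18) and 0.64 (0.57 to 0.72) for miR-99b-5p to miR-99a-5p.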

How the data were processed

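Small RNA libraries were prepared from total RNA with an NEBNext small RNA kit per the labels. The deposited values were raw counts of reads per mature miRNA in 6 libraries, for 2588 miRNAs each. The submitters' processing notes name Bowtie2 and bedtools, and the settings, annotation release, genome build, mismatches and strand are not given in the sources used here. Reads had no molecular identifiers that the sources mention, so intervals cover counting error only.

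Groups came from the sample labels. The members, lists and tests were chosen with earlier results of these data known. The named miRNAs were the 6 members, their seed families and paralogous clusters, the 3 nearest profiles of each 5p arm, hsa-miR-21-5p where the scaling turns on it and epithelial miRNAs. Paralog arms singled out, hsa-miR-4458, hsa-miR-4500 and hsa-miR-4319 were chosen after their values were seen.

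Counts were scaled with TMM over all 6 libraries (edgeR 4.0.16, R 4.3.3) to a mean effective library size of 749498. ND was log2(normalized count + 1), and log2 ratios are ND differences. The study's criteria, ND 8 or more and a change of 1.4-fold or more, were applied with ND taken from the greater of the 2 libraries. Intervals were exact 95% Clopper-Pearson intervals of the conditional binomial share, exact Poisson intervals for levels and Wald intervals for changes of within-library ratios. No p-value was computed. Alternatives were DESeq2 1.42.0 size factors, total count with and without hsa-miR-21-5p, TMM within each line, unscaled counts, TMM on miRNAs with a mean count of at least 10, pseudocounts of 0.5 and 10, ND thresholds of 7 and 9, the ND criterion required of both libraries, a 2-fold criterion, an interval wholly beyond 1.4-fold, the let-7 family without hsa-miR-98-5p, and 0.5 added to counts in within-library ratios.

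RefSeq sequences (GRCh38.p14) matched 2281 of the 2588 names, and hairpin annotation came from GENCODE 29. The scripts, in Python 3.11.15 with scipy 1.17.1, pandas 2.3.3 and numpy 2.4.6, had been tested on simulated data.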

Additional observations from a re-analysis of the deposited data

Results flagged for a closer look

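From 1 to 5 ng/mL TGF-β1, 5 of the 6 members had log2 ratios of opposite sign in A549 and BEAS-2B cells. With 1 library per group the difference between the lines was not tested, and no explanation was weighed. The difference, A549 minus BEAS-2B, was 1.19 for hsa-miR-125a-5p (0.56 and -0.63) and 1.02 for hsa-miR-125a-3p (0.53 and -0.49). It was 0.29 for hsa-miR-99b-5p (0.07 and -0.22), 0.33 for hsa-miR-99b-3p (0.17 and -0.17) and -0.11 for hsa-let-7e-3p (-0.09 and 0.02). The signs of both miR-125a arms were the same under all 6 other scalings, whereas those of the other 3 arms changed under at least 1.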

How the results depend on the processing

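Of 414 recomputed member log2 ratios, 288 moved by less than their counting interval, 126 moved further and 19 changed sign. All 108 recomputed within-library shares stayed within their interval. Those recomputations only added 0.5 to counts or left out hsa-miR-98-5p, changes too small to leave a counting interval. They are therefore no sign of stability, and the assignment of reads between related sequences was not varied. The number of members past both criteria depended on the scaling and the thresholds. For A549 cells at 5 ng/mL against control, 3 members became 1 with DESeq2 size factors, unscaled counts, TMM on miRNAs with a mean count of at least 10 or a 2-fold criterion. Smaller changes went both ways. The miR-99b-3p arm also passed with total count (0.59), and miR-125a-3p with an ND of 7 (0.84). The let-7e-5p arm fell short with TMM within each line (0.43) or an interval wholly beyond 1.4-fold. For BEAS-2B cells at 5 ng/mL, 1 became 0 with DESeq2, total count, unscaled counts, filtered TMM, the 2-fold criterion or an interval wholly beyond 1.4-fold, and 2 with total count without miR-21-5p. For A549 cells at 1 ng/mL, 2 became 1 with DESeq2, total count without miR-21-5p, TMM within each line, filtered TMM or the interval criterion, and 0 with total count or the 2-fold criterion. For BEAS-2B cells at 1 ng/mL, 2 became 0 with total count, unscaled counts or the 2-fold criterion, and 1 with filtered TMM, an ND of 9 or the interval criterion. There, miR-99b-5p also passed with total count without miR-21-5p (0.49), and miR-125a-3p with an ND of 7 (0.89). Between 5 and 1 ng/mL in A549 cells, 1 became 2 with total count or an ND of 7, and 0 with unscaled counts or the 2-fold criterion. In BEAS-2B cells, 1 became 0 with unscaled counts or the 2-fold criterion, and 2 with an ND of 7. Between the controls of the lines, 2 became 1 with an ND of 9 or the interval criterion, 1 with total count, where both miR-99b arms were lost and miR-125a-5p passed as lower in A549 cells (-0.54), and 0 with unscaled counts, filtered TMM or the 2-fold criterion. At 1 ng/mL, 1 became 0 with total count or the 2-fold criterion, 3 with unscaled counts and 2 with an ND of 7, and at 5 ng/mL, 3 became 1 with the 2-fold criterion. Also at 5 ng/mL, miR-99b-3p fell short with total count without miR-21-5p (0.38), unscaled counts (0.40) or an interval wholly beyond 1.4-fold. Of the 6 members higher in both lines at 5 ng/mL, 3 were so under total-count scaling. Under unscaled counts or filtered TMM, miR-99b-5p and miR-125a-5p were not. A stricter threshold can only lower a count and a lower one can only raise it. The member gained with an ND of 7 was miR-125a-3p in each case. A change of scaling shifts all log2 ratios of a comparison together, so members near 1.4-fold pass or fail by construction. Which scaling is the right one was not tested.

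With 1 library per group, none was left out. No paired analysis was possible because each group has a single library. TMM within each line gives no value between lines. The depth limits let-7e-3p and miR-125a-3p, whose counts were at most 80 and 147.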
